A study of Mus musculus with 12 samples.

Results

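The glutathione peroxidases are enzymes that reduce peroxides with thiols, and 5 of their genes, Gpx1, Gpx3, Gpx4, Gpx7 and Gpx8, were followed here out of 55573 genes in the deposited tables. They were chosen by gene symbol, and Gpx7 was singled out because earlier results of these data showed it silent in 1 group, so its levels are given as a description with no test. The cells were mouse embryonic fibroblasts (MEFs), immortalised by SV40 large T antigen, and RNA of 12 cultures was sequenced, 3 from each of 4 groups, which the labels call independent. Fadd/Mlkl knockout cells (Fadd-/-Mlkl-/-) carried an empty vector, and their counterpart had Fadd put back. Casp8/Mlkl knockout cells (Casp8-/-Mlkl-/-) likewise carried an empty vector, and their counterpart had Casp8 put back. The pairs are called the Fadd line and the Casp8 line, and all 4 groups lack Mlkl, the executioner of necroptosis. FADD is the adaptor that brings the protease caspase-8 to death receptors. Put-back cells express the gene ectopically, and the sources used here do not say whether a line is 1 clone. The cells were untreated, were harvested 24 h after plating, and grew in medium that contained β-mercaptoethanol, a thiol reductant. The series' title concerns spontaneous expression of Zbp1 and necroptosis, and the peroxidases are read here across the same comparisons.

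Gpx1 and Gpx4 encode selenoproteins. GPX1 removes hydrogen peroxide in the cytosol and mitochondria, and GPX4 reduces lipid hydroperoxides within membranes and thereby holds back ferroptosis, a death driven by lipid oxidation. GPX3 is a secreted selenoprotein of blood plasma. GPX7 and GPX8 use cysteine in place of selenocysteine, reside in the endoplasmic reticulum, and pass oxidising power from peroxide to protein disulfide isomerase.

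That division is written in the coding sequence. The 30 bases around the codon of the catalytic residue are shown for each member, 5′ to 3′ on the coding strand, from GENCODE M21 transcripts (build GRCm38), with that codon in capitals.
Gpx1: aatgtcgcgtctctcTGAggcaccacgatc
Gpx3: aacgtagccagctacTGAggtctgacagac
Gpx4: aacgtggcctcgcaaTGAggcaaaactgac
Gpx7: aacgtagctagcgaaTGTggcttcacagac
Gpx8: aacgtggctagtgacTGCcgcttcacagac
Gpx1, Gpx3 and Gpx4 each have 1 in-frame TGA before the stop codon, which is read as selenocysteine, whereas Gpx7 and Gpx8 have none and carry the cysteine codons TGT and TGC. The Gpx7 window lies in exon 2 of 3, on the minus strand at chr4:108403418-108403447, and the Gpx8 window in exon 2 of 3, on the minus strand at chr13:113045649-113045678. The Gpx1, Gpx3 and Gpx4 windows are on the plus strand, in exon 1 of 2 at chr9:108339436-108339465, in exon 2 of 5 at chr11:54907241-54907270 and in exon 3 of 7 at chr10:80054722-80054751.

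The promoters of the 2 endoplasmic reticulum members are shown because Gpx8 was transcribed in every culture and Gpx7 in some cultures only. Each is 300 bases, from 250 before to 50 after the RefSeq start (GRCm38.p6), 5′ to 3′ on the gene's minus strand, with CpG dinucleotides in capitals. The Gpx7 window is chr4:108406664-108406963 and the Gpx8 window is chr13:113046339-113046638.
Gpx7: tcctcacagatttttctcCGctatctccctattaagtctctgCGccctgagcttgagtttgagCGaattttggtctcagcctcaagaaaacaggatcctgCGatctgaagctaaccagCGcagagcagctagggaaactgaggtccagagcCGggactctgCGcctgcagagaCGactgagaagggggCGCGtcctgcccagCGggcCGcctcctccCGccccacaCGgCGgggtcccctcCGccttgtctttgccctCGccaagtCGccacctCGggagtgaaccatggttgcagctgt
Gpx8: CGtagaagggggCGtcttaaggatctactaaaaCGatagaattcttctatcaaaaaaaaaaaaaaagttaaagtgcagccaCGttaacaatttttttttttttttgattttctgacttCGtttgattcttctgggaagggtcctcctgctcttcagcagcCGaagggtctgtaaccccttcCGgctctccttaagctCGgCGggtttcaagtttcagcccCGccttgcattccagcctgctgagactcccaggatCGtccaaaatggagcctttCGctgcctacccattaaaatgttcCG
Gpx7 had 19 CpG and 60.3% G plus C in this window, and Gpx8 had 13 CpG and 45.3%. Over 32851 mouse promoter windows the median was 7 CpG, and 71.9% of windows had fewer than Gpx7. The core of the antioxidant response element, which NRF2 binds, was searched on both strands as TGACNNNGC and was found in the listed windows of 0 of the 5 members, against 12.4% of all windows. A GC box (GGGCGG, both strands) occurred once in the Gpx7 window and in 35.7% of all windows, and no CCAAT (both strands) was found there, against 37.4% of all. No methylation or binding data were used here.

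The libraries held 33918359 to 59388559 expected counts. Fadd itself was at 0.0999 ± 0.0704 CPM (counts scaled to library size) in Fadd/Mlkl knockout cells and 23.65 ± 3.96 CPM with Fadd put back (SD, n = 3 each), and Casp8 at 11.34 ± 1.01 CPM in Casp8/Mlkl knockout cells and 140.6 ± 63.4 CPM with Casp8 put back. Reads of Casp8 in its knockout and of Mlkl in all groups (means of 6.37 to 10.6 CPM) remained, and the tables do not show which exons were deleted. On the first principal component (52.3% of the variance) the replicate 1 libraries of the Casp8 line lay at 22.3 and 36.3, apart from the other 4 libraries of that line at 81.9 to 103, while the Fadd line lay between -114 and -38.3. Of 12 fibroblast markers, 9 reached 1 CPM in every group, with sums of 2030 to 3120 CPM in Fadd/Mlkl knockout, 3300 to 4660 with Fadd put back, 6760 to 18500 in Casp8/Mlkl knockout and 10400 to 14800 with Casp8 put back. Thy1 and Lum were at 0 counts throughout the Fadd line, and Thy1 was also at 0 counts with Casp8 put back. Col1a2 was at 1.22 ± 0.744 CPM in Fadd/Mlkl knockout and 256 ± 140 with Fadd put back (edgeR adjusted p = 0.000627). In Casp8/Mlkl knockout and with Casp8 put back it was at 4320 ± 2300 and 4160 ± 1860 CPM. Prrx1 had means of 4.11 and 5.15 CPM in the Fadd line, against 374 and 331 in the Casp8 line. Of 10 tested, 1 rose and 5 fell in Fadd/Mlkl over Casp8/Mlkl knockout (edgeR adjusted p under 0.05), against 10.3% of all genes. The 6 leukocyte markers summed to at most 2.17 CPM in any library, the 3 endothelial ones to at most 1.27 CPM and the 4 muscle ones to at most 2.35 CPM. The 5 epithelial markers summed to 1.01 to 4.92 CPM in Fadd/Mlkl knockout, 6.08 to 34.5 with Fadd put back, 4.13 to 15.1 in Casp8/Mlkl knockout and 3.42 to 4.96 with Casp8 put back. The 4 neural markers summed to 22.9 to 24.6, 27.4 to 34.4, 64.4 to 308 and 163 to 380 CPM in the same order of groups, with Sox10 and Snap25 at 0 counts. Bulk RNA cannot tell fewer cells of a type from less RNA per cell, and the part of these marker differences in the results was not tested.

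Gpx1 and Gpx4 were the most abundant peroxidase transcripts in every culture, and Gpx8 came next. Levels between genes are compared as TPM, a unit that corrects for gene length and depth. Together the 5 genes summed to 259.3 to 459.3 TPM, of which Gpx1 made up 39.0 to 51.1%, Gpx4 36.1 to 49.6% and Gpx8 9.46 to 20.8%. Mean levels ran Gpx1, Gpx4, Gpx8, Gpx7, Gpx3 in 3 groups. Gpx1 and Gpx4 overlapped in range in all 4 groups, so their order does not exceed the spread, whereas Gpx8 lay below both, and above Gpx7 and Gpx3, with no overlap. In Fadd/Mlkl knockout cells Gpx7 and Gpx3 overlapped at 0. The deposited FPKM values gave the same order. These shares and this order take Gpx4 as listed, apart from its near-identical pseudogene Gpx4-ps2 at 71.74 to 97.96 TPM. The place of Gpx4 beside Gpx1 is uncertain to that extent. The intestinal Gpx2, the epididymal Gpx5 and the olfactory Gpx6 had 0 counts in all 12 libraries, which for a single library allows up to 3 counts.

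**Figure D1:**
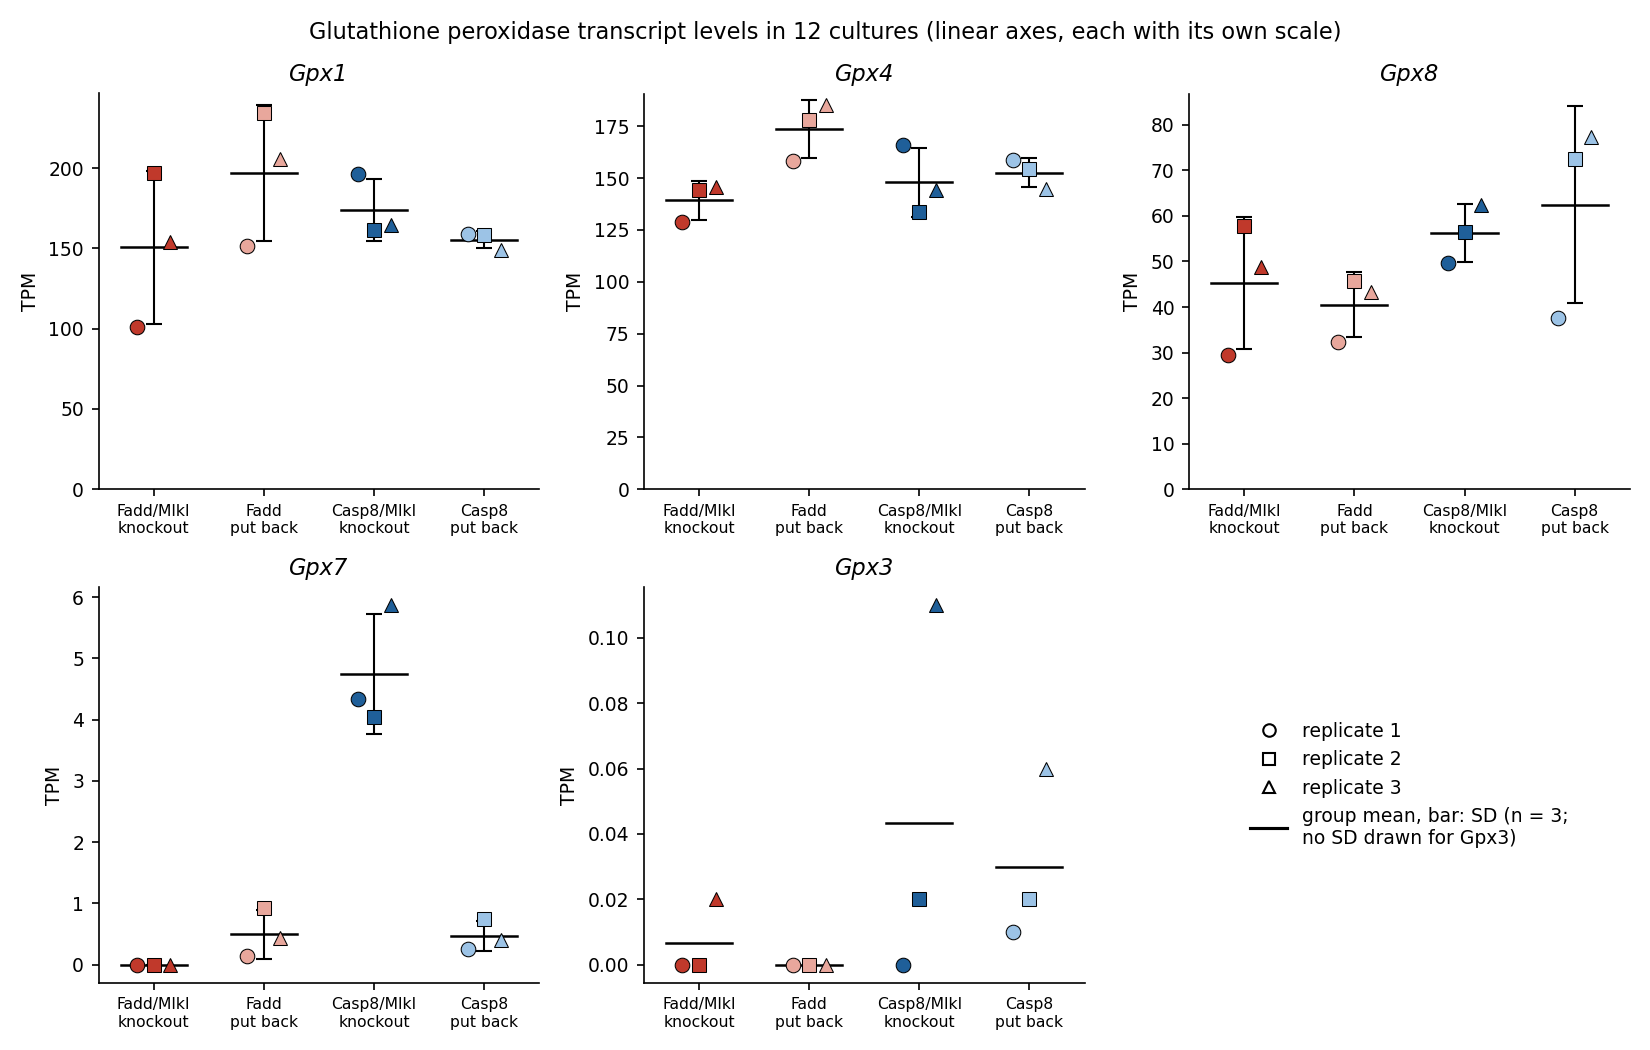
Level in TPM (linear axis, scale set per gene) of each glutathione peroxidase in every culture, by group, with the group mean and SD (n = 3, no SD drawn for Gpx3). Gpx7 is at 0 in the 3 Fadd/Mlkl knockout cultures and at 4.04 to 5.87 TPM in the Casp8/Mlkl knockout cultures, while Gpx1, Gpx4 and Gpx8 lie at 29.48 TPM or more in all groups.

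Gpx7 was silent without FADD and highest without caspase-8. It lies on the minus strand of chromosome 4 (ENSMUSG00000028597.11, chr4:108400390-108406961). Fadd/Mlkl knockout libraries had 0, 0 and 0 counts of Gpx7, against 12, 70 and 37 counts with Fadd put back. Casp8/Mlkl knockout libraries had 289, 337 and 320 counts, against 22, 74 and 35 with Casp8 put back. So the 3 libraries without FADD showed no read of the gene, the 3 without caspase-8 stood above the other 9, and the put-back groups of both lines overlapped in between.

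In TPM, Gpx7 was at 4.33, 4.04 and 5.87 in Casp8/Mlkl knockout cultures and at 0.25, 0.74 and 0.41 with Casp8 put back. With Fadd put back it was at 0.14, 0.92 and 0.43 TPM. Scaled to depth, its mean was 0 CPM in Fadd/Mlkl knockout, 0.915 ± 0.722 CPM with Fadd put back, 7.93 ± 1.36 CPM in Casp8/Mlkl knockout and 0.825 ± 0.458 CPM with Casp8 put back (SD, n = 3 each). A total of 0 counts over the 3 Fadd/Mlkl knockout libraries allows up to 3 counts, which is 0.019 CPM. Against that floor Gpx7 was at least 48.1-fold lower in Fadd/Mlkl knockout than with Fadd put back, and at least 416-fold lower than in Casp8/Mlkl knockout. Without Fadd/Mlkl knockout replicate 1, 2 or 3 the floor is higher, and the first bound becomes 30.7-, 31.3- or 34.1-fold and the second 266-, 271- or 296-fold. The first bound is 27.8-fold without replicate 2 of the cells with Fadd put back, the culture of that group with the most Gpx7 counts. The mean in Casp8/Mlkl knockout was 9.61-fold that with Casp8 put back, and its lowest library was 5.02-fold the highest put-back library. Leaving out both replicate 1 libraries of the Casp8 line gave a fitted log2 value of 3.05 in place of 3.26. The put-back values rest on 119 counts in all with Fadd and 131 with Casp8, and varied several-fold between cultures.

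The level of Gpx7 within the family therefore differed by group. It made up 1.04 to 1.56% of family TPM in Casp8/Mlkl knockout, 0.0703 to 0.192% with Casp8 put back, 0.041 to 0.2% with Fadd put back and 0% in Fadd/Mlkl knockout. Gpx8, its partner in the endoplasmic reticulum, exceeded it 10.6- to 14-fold in Casp8/Mlkl knockout, 98- to 189-fold with Casp8 put back and 49.8- to 231-fold with Fadd put back. Across the 12 libraries the log2 CPM of Gpx7 had a Pearson r of 0.212 with Gpx1, -0.166 with Gpx4 and 0.25 with Gpx8. These points share their group means, so the values only describe the profiles.

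Gpx1, Gpx4 and Gpx8 did not pass the test in either line. edgeR's quasi-likelihood test with Benjamini-Hochberg adjustment called 0 of these 3 genes between Fadd/Mlkl knockout and Fadd put back, where 1.49% of 16396 genes tested were called, and 0 of 3 between Casp8/Mlkl knockout and Casp8 put back, where 0.0061% were called. The change in the Fadd line minus that in the Casp8 line called 0 of 3, against 0.836% of all genes. Between the lines it called 0 of 3 for the knockout groups (10.3% of all genes) and 0 of 3 for the put-back groups (6.21%). DESeq2 and limma-voom also called 0 of 3 in each comparison, and 0 of 3 reached an unadjusted p under 0.05. P-values here measure the spread between cultures of a line, with n = 3 per group.

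Gpx1 (ENSMUSG00000063856.7, plus strand, chr9:108338903-108340343) had 101.21, 196.75 and 153.73 TPM in Fadd/Mlkl knockout, against 151.2, 234.49 and 205.92 TPM with Fadd put back. Casp8/Mlkl knockout cultures had 196.35, 161.51 and 164.47 TPM of Gpx1, against 158.86, 158.38 and 149.19 TPM with Casp8 put back. The Fadd groups overlapped, and the Casp8/Mlkl knockout cultures all lay above the put-back ones by a small margin in TPM but overlapped them in CPM (185.9 to 265.1 against 184.3 to 206.5). The log2 change was -0.28 (SE 0.231, 95% interval -0.784 to 0.231, edgeR adjusted p = 0.895) in the Fadd line and 0.22 (SE 0.231, -0.285 to 0.731, adjusted p = 0.999) in the Casp8 line. Their difference was -0.50 (SE 0.326, -1.22 to 0.219, edgeR adjusted p = 0.961). Without both replicate 1 libraries the Casp8 value was 0.054 (edgeR adjusted p = 0.945).

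Gpx4 (ENSMUSG00000075706.10, plus strand, chr10:80047166-80056439) had the smallest standard errors of the 3 genes. Its level was 128.62, 144.13 and 145.59 TPM in Fadd/Mlkl knockout, against 158.19, 178.09 and 185.16 TPM with Fadd put back. In the Casp8 line it had 166.02, 133.44 and 144.11 TPM in knockout cultures and 158.78, 154.23 and 144.74 TPM with Casp8 put back. Every Fadd/Mlkl knockout value was below every put-back value in TPM, and the Casp8 groups overlapped. The log2 change was -0.20 (SE 0.137, 95% interval -0.506 to 0.0965, edgeR adjusted p = 0.785) in the Fadd line and -0.042 (-0.343 to 0.259, adjusted p = 0.999) in the Casp8 line, with a difference of -0.16 (SE 0.194, -0.589 to 0.263, adjusted p = 1).

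Reads of Gpx4 are uncertain by their origin. The transcribed pseudogene Gpx4-ps2 (chr10:45875291-45876086) was listed at 71.74 to 97.96 TPM, 0.529 to 0.595 times Gpx4 in the same library, and its 2 annotated transcripts were 99.6% and 99.7% identical to Gpx4 over their aligned bases. The log2 CPM of gene and pseudogene had an r of 0.943 over 12 libraries. How RSEM divided reads between such copies decides both values. The other pseudogenes, Gpx4-ps1 and Gpx2-ps1, stayed at or below 0.85 and 0.17 TPM.

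Gpx8 (ENSMUSG00000021760.5, minus strand, chr13:113042753-113046410) had 29.48, 57.84 and 48.78 TPM in Fadd/Mlkl knockout, against 32.35, 45.8 and 43.4 TPM with Fadd put back. Casp8/Mlkl knockout cultures had 49.74, 56.48 and 62.39 TPM, against 37.63, 72.49 and 77.31 TPM with Casp8 put back. Replicate 1 was the lowest culture of Gpx8 in each of the 4 groups, and knockout and put-back cultures overlapped in both lines. Its log2 change was 0.29 (SE 0.301, 95% interval -0.375 to 0.949, edgeR adjusted p = 0.953) in the Fadd line and -0.16 (-0.819 to 0.503, adjusted p = 0.999) in the Casp8 line. The difference between them was 0.45 (SE 0.425, -0.491 to 1.38, edgeR adjusted p = 1).

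That difference was called once the replicate 1 libraries of both lines were left out, at 0.69 (edgeR adjusted p = 0.0215). In the same fit 1857 genes were called for the difference, against 137 with all libraries. Gpx8 lies within the span of Cdc20b on the other strand, and Cdc20b had 6 counts in all over the 12 libraries.

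Between the lines the 3 genes differed by less than their intervals. With the knockout groups, Fadd over Casp8, the log2 change was -0.077 (95% interval -0.584 to 0.431) for Gpx1, 0.088 (-0.213 to 0.389) for Gpx4 and -0.12 (-0.784 to 0.539) for Gpx8, with edgeR adjusted p from 0.768 to 0.887. With the put-back groups it was 0.42 (-0.0854 to 0.931) for Gpx1, 0.25 (-0.0505 to 0.552) for Gpx4 and -0.57 (-1.23 to 0.0964) for Gpx8, with edgeR adjusted p from 0.319 to 0.332. Leaving out replicate 1 of the cells with Casp8 put back, the lowest of that group for Gpx8, gave -0.86 for Gpx8 (edgeR adjusted p = 0.0328).

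**Figure D2:**
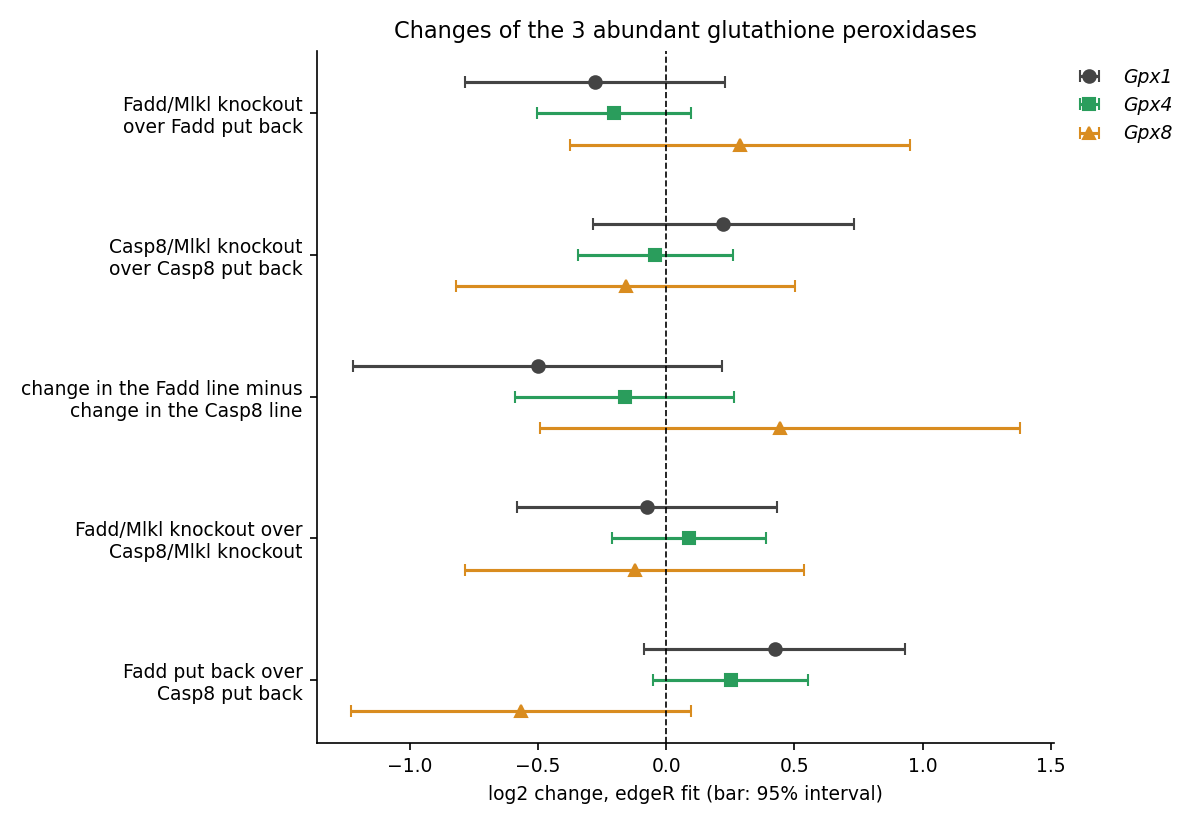
Log2 change of Gpx1, Gpx4 and Gpx8 in 5 comparisons (rows), from the edgeR fit over 12 libraries, with the 95% interval as a bar and no change as the dashed line. Every interval crosses 0, and Gpx4 has the narrowest ones.

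Gpx3 (ENSMUSG00000018339.11, plus strand, chr11:54902453-54910377) was at or near 0 in these fibroblasts. It had 0, 0 and 1 counts in Fadd/Mlkl knockout and 0, 0 and 0 counts with Fadd put back. Casp8/Mlkl knockout libraries had 0, 2 and 8 counts, against 1, 2 and 6 with Casp8 put back. The gene fell under the filter on low counts and was not tested. Of its 20 counts, 19 were in the Casp8 line, and both groups of that line overlapped.

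Genes with the profile most like that of Gpx7 were sought among 12811 protein-coding genes tested, by Pearson r of log2 CPM over the 12 libraries. The first 8 were Ehd3 (0.988), an ATPase of endocytic recycling, Erfe (0.976), which encodes the hormone erythroferrone, the zinc finger gene Zfp105 (0.958), the potassium channel gene Kcnk6 (0.958), the LIM-domain gene Crip1 (0.947), Jmjd8 (0.942), whose protein resides in the endoplasmic reticulum, Htatip2 (0.941) and the lipase family gene Lipo3 (0.935). They lie on chromosomes 1, 7, 9, 12, 17 and 19, none on chromosome 4 with Gpx7. Of the 8, 5 were also among the first 8 on a log2 TPM scale and 4 by Spearman's rho.

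Their levels show the shared shape. Summed over the 3 libraries of a group, Ehd3 had 0 counts in Fadd/Mlkl knockout and 29 with Fadd put back, and 167 in Casp8/Mlkl knockout against 33 with Casp8 put back. Erfe had a mean of 0 CPM in Fadd/Mlkl knockout and 1.71 ± 1.12 CPM with Fadd put back, and 17.7 ± 1.02 CPM in Casp8/Mlkl knockout against 3.87 ± 2.43 CPM with Casp8 put back (SD, n = 3 each). Zfp105 and Lipo3 were also at 0 counts in Fadd/Mlkl knockout, Crip1 had 1 count there, and Kcnk6 and Htatip2 had 7 each. Jmjd8 alone of the 8 kept a level above 1 CPM there, at 1.15 ± 0.0626 CPM against 2.47 ± 0.767 CPM with Fadd put back. Lipo3 belongs to a family of close copies, so its reads are uncertain.

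Few genes showed the same silence. Of 21639 protein-coding genes matched in the annotation, 54 had 0 counts in all 3 Fadd/Mlkl knockout libraries and at least 1 count in each of the other 9. In 9 of these 54, Gpx7 included, every Casp8/Mlkl knockout library also lay above every library with Casp8 put back. The share of all genes that separate in this way was not counted, so 9 of 54 cannot be called unusual. The other 8 were Ehd3, Erfe, Zfp105, Lipo3, Gstm4, Rsph9, Ttc38 and Ch25h, which follow from the same values and are a description.

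**Figure D3:**
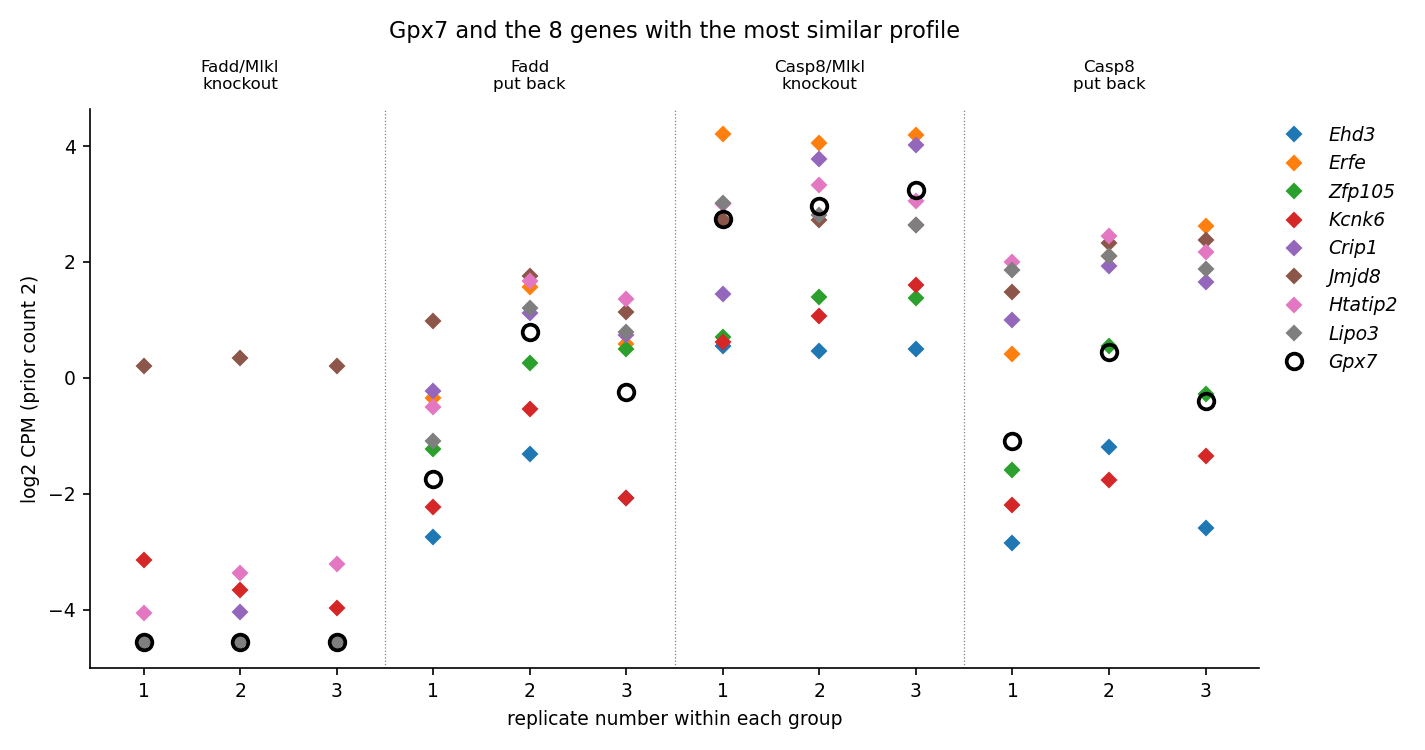
Level (log2 CPM, prior count 2) of Gpx7, as open circles, and of the 8 genes with the highest Pearson r to it, as diamonds, in each library by group. Jmjd8 is the exception among them in Fadd/Mlkl knockout, where Gpx7 and most of the others lie at the bottom of the scale.

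The tested genes beside Gpx7 showed small changes. Of 18 protein-coding genes within 500 kb, 14 were tested, and edgeR called 0 of them in the Fadd line (1.49% of all genes), the Casp8 line (0.0061%), the difference between lines (0.836%) or between the knockout groups (10.3%). With so few genes, counts of 0 lie near those shares. Their log2 changes ran from -0.23 to 0.28 (median -0.068) in the Fadd line and from -0.48 to 0.77 (median 0.11) in the Casp8 line. The nearest tested genes were Coa7, an assembly factor of respiratory complexes 78.82 kb downstream by start, at -0.067 and -0.27 in those lines, and Tut4, an RNA uridylyltransferase on the upstream side with its start at -52.47 kb, at 0.28 and 0.41. Between the put-back groups 1 of the 14 was called, Echdc2, at 1.41 (edgeR adjusted p = 0.00231), against 6.21% of all genes. With so few genes that count also lies near the share. The other 4 neighbours fell under the filter on low counts. Summed over 3 libraries, Shisal2a, with a start 23.61 kb from that of Gpx7, had 0 counts in Fadd/Mlkl knockout and 4 with Fadd put back. In the same order 3110021N24Rik had 25 and 7 and Slc1a7 had 3 and 0, the opposite direction, and Zyg11a had 0 in both. In Casp8/Mlkl knockout Shisal2a, Slc1a7, 3110021N24Rik and Zyg11a had 1, 1, 17 and 16 counts. With Casp8 put back they had 0, 0, 9 and 3.

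**Figure D4:**
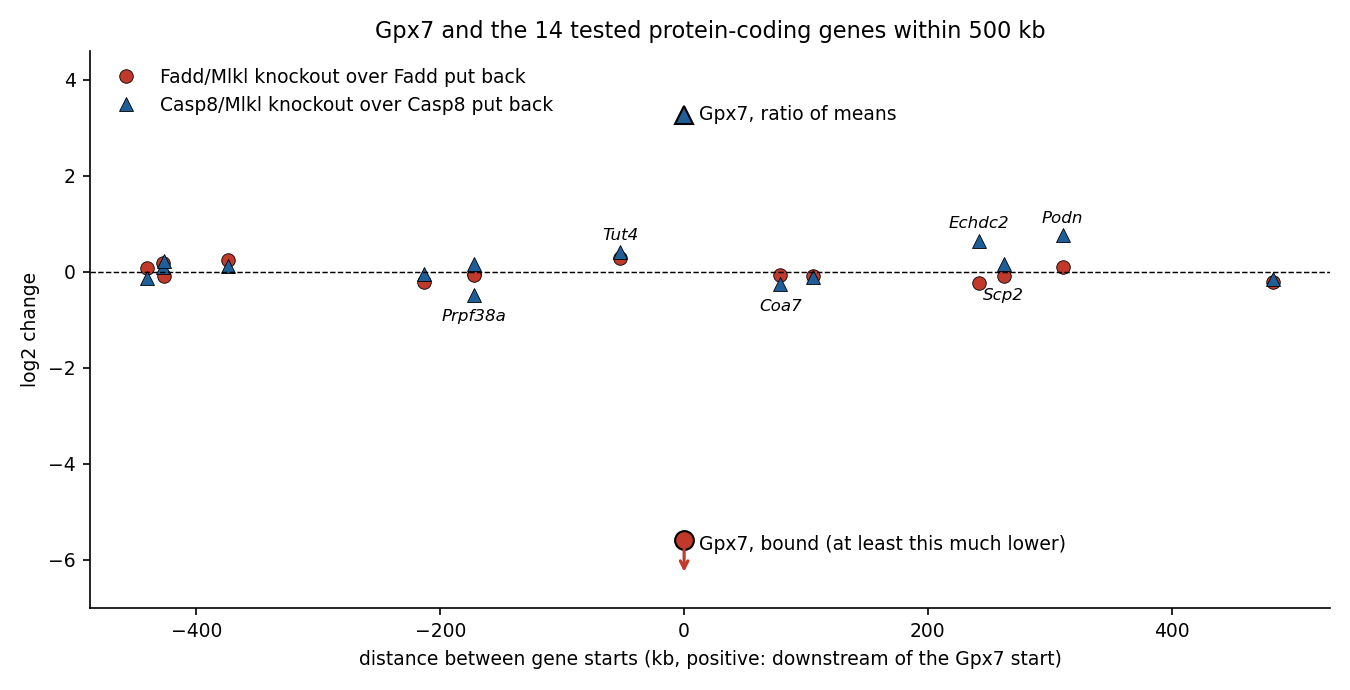
Log2 change of Gpx7 and of its 14 tested protein-coding neighbours against the distance between gene starts in kb, in the Fadd line (circles) and the Casp8 line (triangles). The Gpx7 circle is a bound with a downward arrow, at least 48.1-fold lower (27.8-fold without replicate 2 of the cells with Fadd put back), and its triangle is the 9.61-fold ratio of means, whereas the neighbours lie between -0.48 and 0.77.

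The pathways around the peroxidases were read from 138 genes of glutathione synthesis, thioredoxin and catalase systems, glutathione transferases, selenoprotein synthesis, other selenoproteins, ferroptosis, NRF2 targets and oxidative protein folding, of which 119 were tested. In the Fadd line 0 rose and 1 fell (0.84%, against 1.49% of all genes), and in the Casp8 line 0 rose and 0 fell (against 0.0061% of all genes), by edgeR at an adjusted p under 0.05. Their median log2 change was -0.080 in the Fadd line, where that of all genes was 0.0037, and 0.060 in the Casp8 line, where that of all genes was 0.0079. At an unadjusted p under 0.05 there were 12 list genes in the Fadd line and 6 in the Casp8 line, against 1662 and 920 of the 16396 genes tested. DESeq2 called 7 and 0 list genes, against 697 and 143 genes in all, and limma-voom 1 and 0, against 196 and 1.

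The list gene that fell was Gstm4, a glutathione transferase of the mu class. Fadd/Mlkl knockout libraries had 0, 0 and 0 counts of Gstm4, against 66, 37 and 47 with Fadd put back. Casp8/Mlkl knockout libraries had 78, 68 and 32 counts, against 3, 38 and 28 with Casp8 put back. Like Gpx7 it was silent in every culture without FADD, and it was at least 58.1-fold lower there than with Fadd put back (edgeR adjusted p = 0.0101), counted against 3 counts over the group. The Casp8 groups did not overlap in CPM but the change was not called (1.70, adjusted p = 0.857). The difference between the lines was called (edgeR adjusted p = 0.0115). Close copies of mu-class genes make its reads uncertain. With the replicate block within each line, which the pairing of cultures allows, the adjusted p of Gstm4 was 0.073 for the Fadd line and 0.0944 for the difference, and without both replicate 1 libraries that for the Fadd line was 0.0774. Its fitted log2 value barely moved under that block, at -8.73 against -8.72. With a block over all 12 libraries the adjusted p was 0.0367 for the Fadd line and 0.0512 for the difference, and without the replicate 1 libraries of both lines it was 0.00257 for the difference.

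With the replicate block within each line 3 other list genes of 119 tested were called in the Fadd line. More of all genes were called in that fit as well, with the counts given in the last section. Pdia5, a protein disulfide isomerase, had 4.70 ± 0.936 CPM in Fadd/Mlkl knockout and 13.1 ± 0.997 CPM with Fadd put back (SD, n = 3 each). Its log2 change was -1.50 with the block (edgeR adjusted p = 0.0152) and -1.48 without it (adjusted p = 0.0579). Gsta4, an alpha-class transferase that takes up products of lipid oxidation, was at -2.11 with the block (edgeR adjusted p = 0.0347) and -2.25 without it (0.245). Dio2, the selenoprotein that activates thyroid hormone, had 24, 31 and 12 counts in Fadd/Mlkl knockout and 0, 0 and 1 counts with Fadd put back. Its edgeR adjusted p was 0.0207 with the block and 0.0998 without it. Without both replicate 1 libraries, and with no block, the edgeR adjusted p was 0.37 for Pdia5, 0.67 for Gsta4 and 0.463 for Dio2.

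The most abundant list genes showed small differences that were not called in the Fadd line. Prdx1, a peroxiredoxin, was at -0.080 on the log2 scale and Txnrd1, thioredoxin reductase of the cytosol, at -0.29. Slc3a2, the heavy chain of the cystine transporter, was at -0.23 and Idh1, a source of NADPH, at -0.57. The iron-storage genes Ftl1 and Fth1 were at -0.0082 and -0.11, Sars and Sephs1 of selenoprotein synthesis at -0.061 and -0.18, and the selenoprotein genes Selenof and Selenot at 0.046 and 0.21. P4hb, the protein disulfide isomerase that human GPX7 and GPX8 oxidise, was at -0.44 (SE 0.243, edgeR adjusted p = 0.65), and the chaperone gene Hspa5 at -0.18. In the Casp8 line the same genes lay between -0.26 for Selenot and 0.23 for Sars.

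By list, the medians in the Fadd line ran from -0.20 for glutathione synthesis to 0.011 for other selenoproteins, and in the Casp8 line from -0.11 for other selenoproteins to 0.24 for glutathione transferases. Of 17 ferroptosis genes tested, 6 were above 0 and 11 below in the Fadd line, and 15 above and 2 below in the Casp8 line. Such a tilt in the Casp8 line was not particular to that list. Glutathione synthesis and oxidative folding each had 14 above and 4 below there, and NRF2 targets 12 and 5. Selenoprotein synthesis had 6 and 6, and other selenoproteins 4 and 9. The share of all genes above 0 was not counted. Single genes of these lists varied widely between cultures. Slc7a11, the cystine carrier that feeds glutathione synthesis and was picked after its values were seen, had 18, 1318 and 1083 counts in Casp8/Mlkl knockout and 440, 42 and 45 with Casp8 put back. Replicate 1 was thus low in the knockout group and high in the put-back group. Without the replicate 1 libraries of each line, 22 list genes were called for the difference between lines, against 1 with all libraries, while the count over all genes was 1857 in that fit, against 137.

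**Figure D5:**
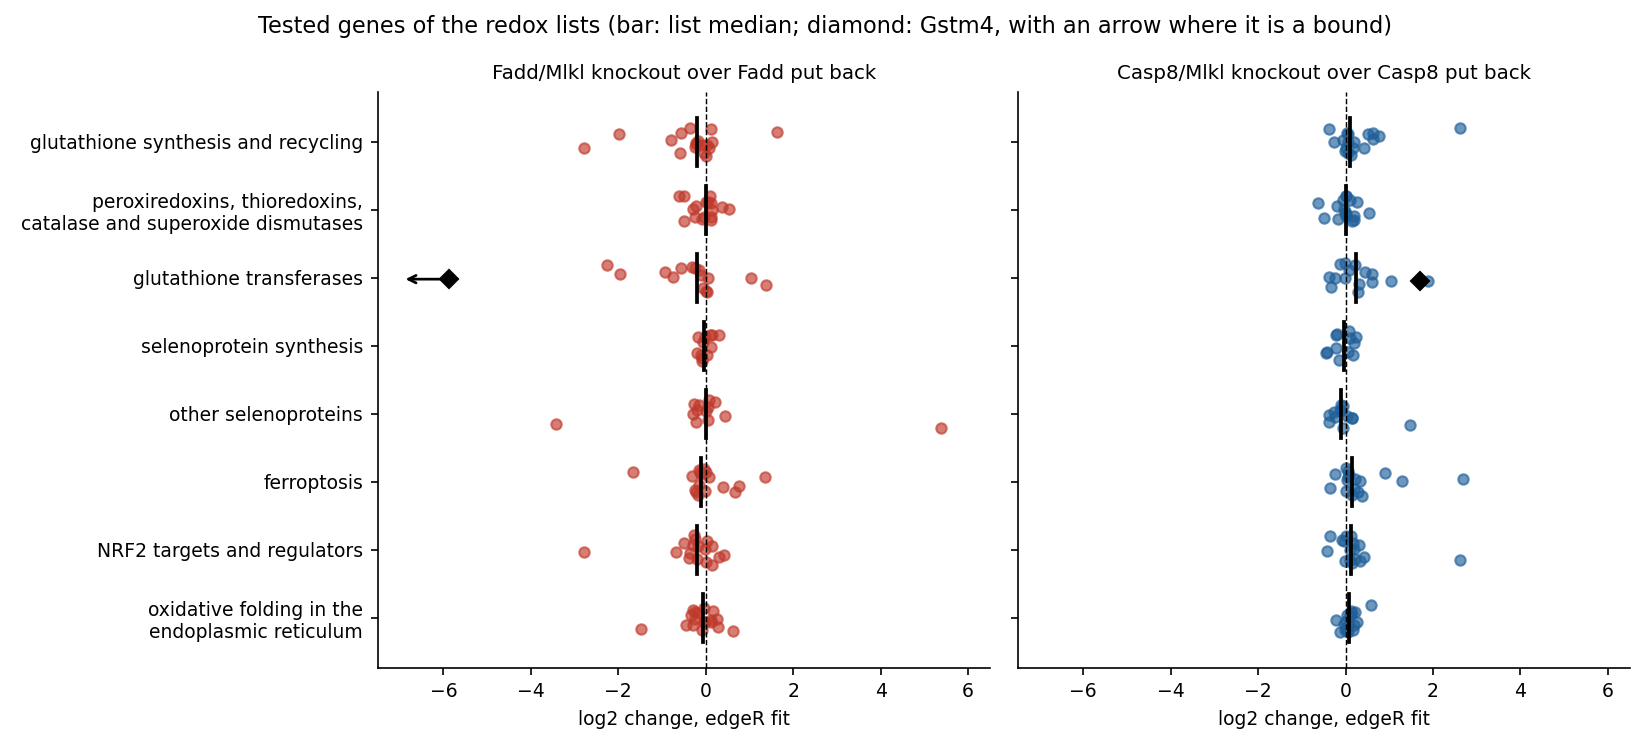
Log2 change of each tested list gene (points), by list, in the Fadd line (left) and the Casp8 line (right), with the list median as a bar. Most genes lie near 0 in both lines, and Gstm4 (diamond) is drawn in the Fadd line at its bound, at least 58.1-fold lower, with an arrow.

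Between the lines more list genes were called, as was so for all genes. With the knockout groups, Fadd over Casp8, 3 rose and 8 fell of 119 (9.24%, against 10.3% of all genes). Those higher in Fadd/Mlkl knockout were Ggt1, which breaks down extracellular glutathione (3.32), the lipoxygenase gene Alox12 (3.31) and Gch1, the entry enzyme of tetrahydrobiopterin synthesis (1.93). Pdia5 was lower at -2.80 (SE 0.346, edgeR adjusted p = 0.000814). Cat, catalase, was at -1.07 (SE 0.223, edgeR adjusted p = 0.0126), with 34.5 ± 5.82 CPM in Fadd/Mlkl knockout and 72.3 ± 16.1 CPM in Casp8/Mlkl knockout (SD, n = 3 each). The others that fell were Mgst3 (-1.06), Me1 (-0.86), Slc3a2 (-0.73), Abcc1 (-0.63), Erp44 (-0.62) and Gstm4, which was at least 75.3-fold lower. Leaving out each library in turn gave 6 called list genes without Fadd/Mlkl knockout replicate 1, 2 or 3, and 21, 3 and 5 without Casp8/Mlkl knockout replicates 1, 2 and 3. The count over all genes moved as well in those fits, from 823 to 2516, against 1695 with all libraries.

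With the put-back groups, Fadd over Casp8, 5 rose and 3 fell of 119 (6.72%, against 6.21% of all genes). Alox12 (5.32), Selenop, the selenium carrier (4.86), Gstt2 (1.98), Gch1 (1.47) and Qsox2, a sulfhydryl oxidase (0.63), rose. Pdia5 (-1.28) and Erp44 (-0.72), both of the endoplasmic reticulum, fell, as did Dio2 (-5.62). A block over all 12 libraries takes same-numbered cultures of every group as matched, the knockout groups included. With it Qsox2 was not called (edgeR adjusted p = 0.0529), the other 7 were, and 5 more were called. Of these, Gstt3, Gsta4, Gstm2 and Aifm2 rose, and Selenos fell. The knockout groups did not move together by replicate number, and the share of all genes called with that block is not given here. Selenop rested on uneven cultures, with 7468, 1206 and 766 counts with Fadd put back and 266, 38 and 59 with Casp8 put back. Pdia5, Erp44, Alox12 and Gch1 were called in both of these comparisons between lines. The comparisons share no library, but they contrast the same lines within a single fit and are not independent. The share of all genes called in both was not counted. With only the 6 libraries compared, Pdia5 was called in both, but Erp44, Alox12 and Gch1 were not. Between the put-back groups limma-voom called neither Pdia5 nor Gch1. Gch1 was not called there without the filter, nor was Pdia5 with scaling by library size alone. Leaving out each library in turn gave 2, 2 and 1 called list genes without replicates 1, 2 and 3 of the cells with Fadd put back, and 23, 1 and 1 without those of the cells with Casp8 put back. The count over all genes ran from 289 to 2207 in those fits, against 1018 with all libraries.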

How the data were processed

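RNA from 12 cultures was made into libraries with a stranded total RNA kit and sequenced in pairs, and per the labels' protocols read ends were trimmed (Cutadapt within Trim Galore), aligned with STAR to mouse genome mm10 with GENCODE M22, and counted with RSEM. Versions were Trim Galore 0.5.0 and STAR 2.7.5a, per the submitters' processing notes. The deposited gene tables hold expected counts, TPM and FPKM for each library, per the file headers. The authors' expected counts carry no normalisation, and 96.05% of those above 0 were whole numbers. The deposited TPM and FPKM values are scaled to depth and gene length. Whether counting used the strand is not stated in those sources. A deposited table of retroviral counts was not used here. No column of unknown sample was in use.

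Expected counts were rounded, and 92 spike-in rows, all at 0 counts, were left out. Positions and types came from GENCODE M21, the release at hand, in which 55094 of 55573 gene identifiers matched exactly. Genes were filtered with edgeR's filterByExpr (minimum count 10), scaled by TMM, and fitted with 1 mean per group over all 12 libraries by the robust quasi-likelihood test of edgeR 4.0.16 in R 4.3.3. Called means a Benjamini-Hochberg adjusted p under 0.05 over 16396 genes. CPM values use TMM library sizes. Folds against a group at 0 are bounds against 3 counts over the group, and such floors cover counting error only. The 95% intervals come from the quasi-likelihood fit and include the spread between cultures. The alternatives were DESeq2 1.42.0, limma-voom (limma 3.58.1), other scalings, no filter, only the 6 libraries compared, replicate blocks, and leaving out libraries. The scripts were tested on simulated counts.

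The members and lists were chosen with earlier results of these data known. The text names the 5 members, Fadd, Casp8 and Mlkl, the 8 genes most like Gpx7, and its nearest tested neighbours. From the pathway lists it names up to 3 called genes per list and comparison, or the 2 most abundant where none was called. Of the called cell type markers it names only Col1a2 and Prrx1. Genes called only with a replicate block, and Echdc2, were named after their values were seen.

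Same-numbered cultures of a line departed from their group means together, with correlations of 0.66, 0.391 and 0.639 for replicates 1 to 3 of the Fadd line, and of 0.203, 0.305 and 0.127 for those of the Casp8 line. What a number marks is not given in the labels. Between the put-back groups the values were 0.317, 0.161 and 0.243, and between the knockout groups -0.252, 0.0711 and -0.371. The numbers were therefore taken as pairs within a line and between the put-back groups, and not between the knockout groups. The block over all 12 libraries nonetheless ties the knockout groups by number too. Promoter letters are from RefSeq (GRCm38.p6) and coding letters from GENCODE M21 transcripts.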

Additional observations from a re-analysis of the deposited data

Results flagged for a closer look

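Gpx7 moved in opposite directions in the lines. Every Fadd/Mlkl knockout library was below every library with Fadd put back, and every Casp8/Mlkl knockout library was above every library with Casp8 put back, where the ratio of CPM means was 9.61. The difference between the lines was not tested for Gpx7, since its silence led to its choice. Single outlying libraries were not assessed in groups of 3.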

How the results depend on the processing

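No change of Gpx1, Gpx4 or Gpx8 was called with the other scalings, without the filter, with DESeq2 or limma-voom, with the 6 libraries compared alone or with a replicate block. Calls appeared for Gpx8 without the replicate 1 libraries of each line (0.689, difference between lines) and without Casp8 put-back replicate 1 (-0.859, put-back groups, range without 1 library -0.859 to -0.387). Values near 0 turned in sign. Gpx1 between knockout groups was 0.249 without both replicate 1 libraries and -0.256 to 0.113 without 1 library. Without 1 library, Gpx4 ran from -0.158 to 0.0525 in the Casp8 line and from -0.0102 to 0.201 between knockout groups, and Gpx8 from -0.461 to 0.0228 in the Casp8 line and from -0.256 to 0.0855 between knockout groups. The cause was not tested. With the replicate block within each line, which takes same-numbered cultures as pairs, Gpx1, Gpx4 and Gpx8 changed by -0.288, -0.203 and 0.268 in the Fadd line and by 0.21, -0.051 and -0.0832 in the Casp8 line. That pairing gave 445 genes in place of 245 in the Fadd line, 6 in place of 1 in the Casp8 line and 236 in place of 137 for the difference, and 3 and 0 list genes for the Fadd line and the difference. The block over all 12 libraries also gave 3 and 0, with Gstm4 in place of Dio2 in the Fadd line. The block over all 12 libraries changed no call of Gpx1, Gpx4 or Gpx8. Between the knockout groups Slc3a2 was no longer called with it, while Por, Aifm2, Pdia3, Txndc5 and Blvrb were.

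Counts over all genes and lists moved more. DESeq2 called 697 genes in the Fadd line, 143 in the Casp8 line, 420 for the difference, 2753 between knockout and 2058 between put-back groups, and 7, 2, 17 and 15 list genes in the same comparisons without the Casp8 line. Without both replicate 1 libraries the counts were 110, 102, 1857 and 2646 genes for the Fadd line, the Casp8 line, the difference and the knockout groups, and 0, 2, 22, 19 and, for the put-back groups, 16 list genes. The 6 libraries alone gave 0 genes in the Casp8 line and 1015 between knockout groups, and 3, 5 and 4 list genes for the Fadd line, the knockout and the put-back groups. Without the filter there were 4 genes in the Casp8 line, and 2 list genes in the Fadd line and 4 between put-back groups, where limma-voom also gave 4. Leaving out 1 library gave 97 to 180 genes in the Fadd line, 0 to 15 in the Casp8 line, 89 to 233 for the difference, 823 to 2516 between knockout and 289 to 2207 between put-back groups, and 1 to 3, 3 to 21 and 1 to 23 list genes in the last 3. Gene counts moved over 1.5 times without any 1 of the Fadd/Mlkl knockout libraries or Fadd put-back replicate 2 (Fadd line), any Casp8/Mlkl knockout library or Casp8 put-back replicate 1 (Casp8 line), Fadd put-back replicate 2, Casp8/Mlkl knockout replicate 1 or Casp8 put-back replicate 2 or 3 (difference), any Fadd/Mlkl knockout library or Casp8/Mlkl knockout replicate 2 or 3 (knockout groups), and any library (put-back groups). For the knockout and put-back groups and the difference the highest counts came without a replicate 1 library of the Casp8 line, and each such omission leaves fewer samples. Depth limits Gpx3 and Gpx7, which rest on few counts in most libraries.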
